A study of Mus musculus with 24 samples.

Results

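The ERK feedback genes described here are 10 genes out of 25755 in the tables: the dual specificity phosphatase genes Dusp4, Dusp5 and Dusp6, the Sprouty genes Spry1, Spry2 and Spry4, the Sprouty-related genes Spred1 and Spred2, and the ETS factor genes Etv4 and Etv5. They were chosen by gene name as a family, with earlier results of these libraries in view, and which values weighed in that choice was not recorded. The adjusted p-values given for them come from fits over all genes and are a description, not independent evidence. All 10 passed the filter on low values, a mean of at least 10 normalized reads, in each of 9 comparisons.

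The study removed Hdac1 and Hdac2 from the dermal papilla (DP), the mesenchymal cluster at the base of the hair follicle, and profiled sorted DP cells by RNA-seq at 4 ages. YFP-positive cells of each mouse were sorted on their own, and each of 8 groups had 3 mice and 3 libraries, 24 in all. Skin was treated with trypsin overnight and then with collagenase, and cells were sorted and re-sorted before RNA was taken. The part of this handling in the levels below was not tested. Reads on genes ranged from 8171944 to 49331751 per library, with group medians of 9096308 to 11847207 in the telogen groups and 41559897 to 45866922 in the anagen groups. Mice of the double mutant, dM1/2, carried Corin-Cre with both alleles of Hdac1 and of Hdac2 floxed and a ROSA26 EYFP reporter. Controls also carried Corin-Cre and the reporter. They had 1 to 3 floxed alleles of these 2 genes, so that a control could have both alleles of Hdac1 floxed with 1 of Hdac2, or both of Hdac2 with 1 of Hdac1, and the labels do not say which alleles each control mouse had. Corin-Cre acts in the DP after birth, and the sorted cells can hold other Cre-positive cells. Ages were postnatal day 20 (P20, first telogen, the resting phase), P24 (early anagen, the growth phase), P28 (mid anagen) and P60 (second telogen). P20 mice were female, P24 and P28 mice male, and second telogen mice of both sexes, with the sex of each P60 mouse not given. Depth and hair-cycle stage, and in part sex, cannot be told apart in comparisons between telogen and anagen.

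ERK is the last kinase of the RAS, RAF and MEK cascade that growth factor receptors switch on. Its output is limited by genes that it induces: DUSP phosphatases remove phosphate from ERK, and Sprouty and Spred proteins act upstream, at the level of RAS and RAF. Etv4 and Etv5 are transcription factors that FGF signals induce in many tissues, and the DP exchanges FGF and other signals with the epithelium around it.

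The ablated genes were read first, as a check on the labels. At P24 Hdac1 was at 675, 668 and 668 normalized reads (reads divided by a size factor for each library) in the controls and at 209, 188 and 116 in dM1/2. The groups did not overlap, and Hdac1 fell, with a log2 fold change of -2.01 (SE 0.22, limma adjusted p = 0.00167, lower in 3 of 3 mutant libraries). At P28 Hdac1 was at 214, 529 and 105 in the controls and 190.2, 149 and 126 in dM1/2. The library labelled P28 control 3 was thus below every P28 mutant library (limma adjusted p = 0.454 for the P28 difference). The genotypes allowed for controls do not exclude this. Among P28 controls this library also had the highest DP marker sum and the lowest other fibroblast marker sum, given below. The part of genotype or of cell makeup in its low Hdac1 was not tested. The calls of members and the counts of listed genes at P28 are also given without P28 control 3. At P20 Hdac1 was at 375, 511 and 505 in controls and 216, 369.6 and 270 in dM1/2, and at P60 at 506, 359.9 and 376 and 371, 347 and 318. Neither difference passed the test (limma adjusted p = 0.122 and 0.986). Hdac2 was not called at any age, with log2 fold changes from -0.01 at P20 to 0.27 at P24. Whether the counted exons lie inside the floxed parts was not examined, so these reads are a limited check.

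Markers of the DP were high in every anagen library. The sum of 13 DP markers was 314600, 331160 and 396790 normalized reads in P24 controls and 197140, 223670 and 180490 in P24 dM1/2, and the mutant libraries were all lower. At P28 the sum was 275110, 154660 and 438190 in controls and 162490, 143250 and 155160 in dM1/2, so the groups overlapped there. At P20 it was 40813, 33630 and 39015 in controls and 66247, 47314 and 56769 in dM1/2, where the mutant libraries were all higher, and at P60 27113, 33671 and 36898 and 16402, 21913 and 37358. The sum of 7 markers of other fibroblasts, of which Dcn was the most abundant, was 173340, 257000 and 232460 in P20 controls and 130040, 147350 and 119640 in P20 dM1/2, all lower, 79324, 46029 and 23618 and 38219, 17610 and 34587 at P24, and 269860, 297040 and 268840 and 373500, 266910 and 285150 at P60. It was 85632, 193310 and 9956 in P28 controls and 31448, 53251 and 57452 in P28 dM1/2. P28 control 3 had the lowest sum of these and the highest DP sum of the series. P60 dM1/2 1 had an endothelial sum of 5721 against 1644 and 1094 in the other P60 mutant libraries. Tek alone was 5112 of it, and the other 6 endothelial markers summed to 608 against 352 and 395. The sum of 7 smooth muscle and pericyte markers was highest in P20 dM1/2 2 at 13106, and at P28 it was 6949.1, 10763 and 1613.3 in controls and 2588.9, 4104.8 and 6601.9 in dM1/2, lowest in P28 control 3. Sums for the remaining cell types were smaller: the highest in any library was 814 for keratinocytes, 209 for melanocytes, 788 for Schwann cells, 1398 for immune cells and 129 for skeletal muscle. Of the 13 DP markers, 1 rose and 5 fell in dM1/2 at P24 by limma (46.2%, beside 26.6% of all genes). At P28 2 rose and 2 fell (30.8%, beside 35.5%). The part these differences in cell makeup have in the results below was not tested, and fewer cells of a type and less RNA per cell cannot be told apart in bulk libraries.

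**Figure D1:**
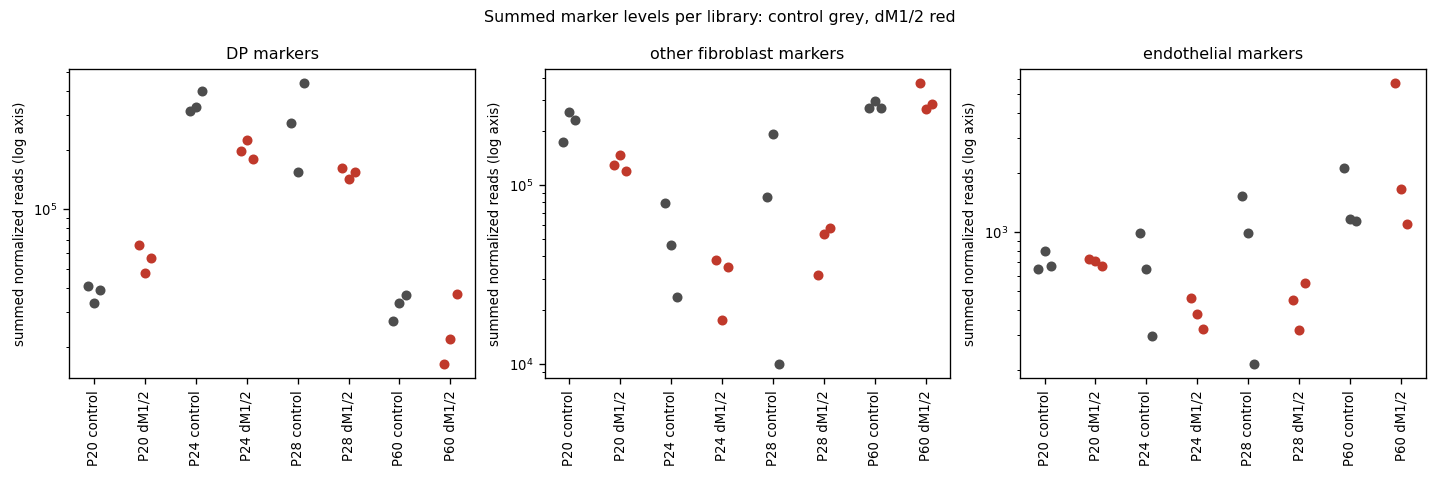
Summed normalized reads of DP, other fibroblast and endothelial markers in each of 24 libraries (log axis, controls grey, dM1/2 red). DP sums were higher in anagen than in telogen libraries, and P28 control 3 stood at the low end for other fibroblast markers.

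Dusp6 encodes a cytoplasmic phosphatase that acts on ERK and is a common readout of ERK activity. At P24 it was at 551, 619.5 and 456 normalized reads in controls and 949, 1469.7 and 1186 in dM1/2. At P28 it was at 485, 459 and 458 in controls and 2005, 2735 and 1978 in dM1/2. At both anagen ages every mutant library was above every control. Dusp6 rose in dM1/2 at P24 by 1.14 on the log2 scale (SE 0.19, 95% interval 0.69 to 1.58, limma adjusted p = 0.00565) and at P28 by 2.24 (SE 0.15, 95% interval 1.88 to 2.60, limma adjusted p = 0.000293). Both calls were kept under all 16 alternatives each. In telogen the groups overlapped: Dusp6 was at 597, 671 and 863 in P20 controls and 734, 593 and 549 in P20 dM1/2, and at 458, 512 and 625 and 497, 603 and 659 at P60.

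Dusp4 encodes a nuclear phosphatase of ERK and related kinases. In controls it was at 342, 418 and 369 normalized reads at P24 and 4006, 4244 and 7035 at P28. In dM1/2 it was at 527, 438 and 413 at P24 and 969.7, 779 and 969.5 at P28. The P28 controls were thus far above all other libraries of the series, and the P28 mutants were all below them. Dusp4 fell in dM1/2 at P28, with a log2 fold change of -2.45 (SE 0.23, limma adjusted p = 0.000691), and was called under all 16 alternatives, the one without P28 control 3 included. At P20 it was at 490.1, 400.4 and 519 in controls and 966, 617 and 657 in dM1/2, where the groups did not overlap but the difference did not pass the test (limma adjusted p = 0.114). The DP marker sums given above were also all higher in P20 dM1/2, and their part in this was not tested. At P60 it was at 332, 343 and 616 and 106, 372 and 482. P60 dM1/2 1 was the lowest of these.

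Dusp5 encodes a nuclear phosphatase specific for ERK. At P24 it was at 572, 659 and 946 in controls and 482, 352 and 476 in dM1/2, and every mutant library was lower. Dusp5 fell at P24, with a log2 fold change of -0.71 (SE 0.22, limma adjusted p = 0.0459). The adjusted p ranged from 0.0112 to 0.135 over 16 alternatives. The call was lost under 10 of them, among these the stricter p, the fold threshold, no filter (adjusted p = 0.0531) and a single fit over 24 libraries (adjusted p = 0.0578). The 10 include the fits without P24 control 2, without P24 control 3 and without any 1 of the P24 dM1/2 libraries, with log2 fold changes of -0.87 to -0.51 over the 6 left-out libraries. At P28 it was at 294, 457 and 161 and 383, 287 and 309, and the groups overlapped.

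The stretches from 250 to 51 bases before the RefSeq start (GRCm38.p6, plus strand) are shown for Dusp5, Dusp6 and Spry1, the members called in a genotype comparison that have a promoter window. A window was matched for 7 of 10 members. Both strands were searched for the CArG box, the site type of serum response factor, and for TGANTCA (AP-1) and TGACGT (the CRE core). CCGGAA, a form of ETS site longer than the GGAA core, was also searched, and GGAA alone was not. Capitals mark the matches, and the matches do not overlap each other.
Dusp5, chr19:53528895-53529094: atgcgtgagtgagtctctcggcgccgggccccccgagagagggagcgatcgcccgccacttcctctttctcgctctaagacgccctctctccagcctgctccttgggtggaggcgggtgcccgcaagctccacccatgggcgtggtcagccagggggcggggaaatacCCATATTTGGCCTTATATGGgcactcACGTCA
Dusp6, chr10:99262981-99263180: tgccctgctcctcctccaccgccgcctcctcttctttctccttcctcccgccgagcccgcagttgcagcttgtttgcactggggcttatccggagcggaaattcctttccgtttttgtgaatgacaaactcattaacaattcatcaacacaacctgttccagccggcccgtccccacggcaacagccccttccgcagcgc
Spry1, chr3:37639697-37639896: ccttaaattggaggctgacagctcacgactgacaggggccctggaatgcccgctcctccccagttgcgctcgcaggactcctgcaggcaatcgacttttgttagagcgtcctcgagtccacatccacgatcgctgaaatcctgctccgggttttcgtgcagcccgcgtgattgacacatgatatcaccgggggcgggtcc
The Dusp5 stretch held 2 CArG boxes and 1 TGACGT on the other strand. No motif searched was found in the Dusp6 or Spry1 stretch, nor in those of the other members with a window. Of 32851 windows of 200 bases, 1.16% held a CArG box, 8.03% CCGGAA, 5.57% TGANTCA and 4.16% TGACGT. A match is a description of letters, not a site in use. The Dusp5 and Spry1 stretches overlap exons of genes on the other strand, and the strand setting of the read counting is not given in the sources used here, so reads in the overlapped 5′ part of Dusp5 and of Spry1 cannot be told apart from reads of those genes. Spry4 also has 2 short genes on the other strand within its bounds.

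**Figure D2:**
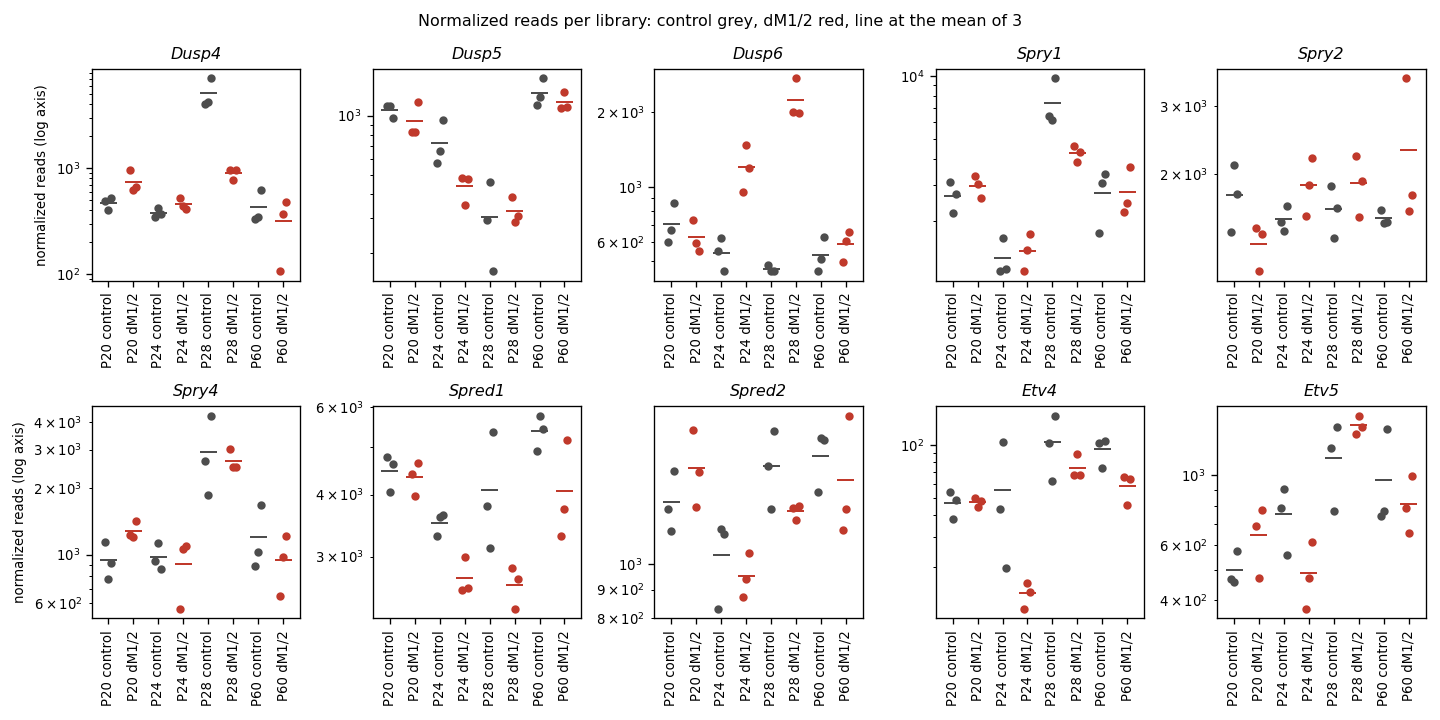
Normalized reads of the 10 genes in each of 24 libraries (log axis, controls grey, dM1/2 red, line at the mean of 3). Dusp6 was higher in dM1/2 at P24 and P28, and Dusp4 and Spry1 were highest in P28 controls.

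Sprouty proteins are inhibitors of receptor tyrosine kinase signalling that FGF signals induce. Spry1 was at 6441, 6154 and 9727 normalized reads in P28 controls and 4597, 3852 and 4299.6 in P28 dM1/2, and every mutant library was lower. Spry1 fell at P28, with a log2 fold change of -0.78 (SE 0.21, 95% interval -1.27 to -0.29, limma adjusted p = 0.0252). The call was lost without P28 control 1 and without any 1 of the P28 dM1/2 libraries, with adjusted p up to 0.0979, and was kept without P28 control 3. At P24 Spry1 was at 1154, 1671 and 1176 and 1152, 1456 and 1734, and the groups overlapped. Spry2 was not called at any age, with log2 fold changes from -0.41 at P20 to 0.49 at P60. At P60 it was at 1610, 1492 and 1503 in controls and 3537, 1609 and 1763 in dM1/2, where the high value was again P60 dM1/2 1. Spry4 was at 2651, 1867 and 4277 in P28 controls and 3028, 2503 and 2492 in P28 dM1/2, and the groups overlapped. At P20 every dM1/2 library was above every control for Spry4, at 1232, 1197 and 1417 against 1144, 774 and 918, without passing the test (limma adjusted p = 0.159); the DP marker sums were all higher there too. Without P20 control 1, Spry2 and Spry4 passed at P20 (limma adjusted p = 0.0429 and 0.0278), in a fit that called 11.1% of all genes, against 0.433% with it.

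Spred proteins hold back the step from RAS to RAF. Spred1 was at 3295, 3604 and 3634 in P24 controls and 2572, 2989.6 and 2587 in P24 dM1/2, and at 3795, 3119 and 5349 and 2839, 2357 and 2705 at P28. The mutant libraries were below all controls at both ages. Its log2 fold changes were -0.37 (SE 0.12, limma adjusted p = 0.0524) and -0.60 (SE 0.21, limma adjusted p = 0.065), and neither passed the threshold of 0.05. At P28 Spred1 passed without P28 control 2 (limma adjusted p = 0.0198), in a single fit over 24 libraries (0.0075) and with DESeq2 (0.0215), and at P24 with TMM scaling (0.0497) and with DESeq2 (0.0209). Spred2 was not called at any age, with log2 fold changes from -0.26 at P28 to 0.20 at P20.

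Etv4 and Etv5 encode ETS transcription factors of the PEA3 group. Etv4 was at 43.3, 103 and 19.8 in P24 controls and 11.6, 16.4 and 14.5 in P24 dM1/2. The mutant libraries were all lower, the controls were spread widely, and the difference did not pass (log2 fold change -1.61, SE 0.57, limma adjusted p = 0.0748). Etv4 passed at P24 in a single fit over 24 libraries (adjusted p = 0.00658), with edgeR (0.0467) and with DESeq2 (0.006). Etv5 was at 788, 907 and 559 and 376, 471 and 613 at P24, and 1 mutant library lay within the range of the controls (limma adjusted p = 0.0884). Without P24 control 3 both passed (limma adjusted p = 0.0112 for Etv4 and 0.0252 for Etv5). At P60 every dM1/2 library was below every control for Etv4, at 65.6, 45.3 and 63.5 against 103, 73.9 and 106, without passing the test (limma adjusted p = 0.986). At P28 Etv5 was at 1217, 770.5 and 1424 and 1350.5, 1548 and 1429, and the groups overlapped.

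Counted over the family, 0 of 10 genes were called at P20 by limma, where 0.433% of all genes tested were called. There 3 members (30.0%) had an unadjusted p under 0.05 beside 19.8% of all genes, edgeR called 0, and DESeq2 called 1, Dusp4, beside 4.79% of all genes. At P24 1 member rose and 1 fell (20.0%), beside 26.6% of all genes called. There edgeR called 3 members, Etv4 added (30.0%, beside 26.7% of all genes), and DESeq2 5 of 10, Etv4, Etv5 and Spred1 added (beside 33.5%), and 5 of 10 had an unadjusted p under 0.05 (beside 39.5%). At P28 1 rose and 2 fell (30.0%), beside 35.5% of all genes, edgeR called 3 (beside 34.8%) and DESeq2 4 (40.0%, beside 41.3%). At P60 limma called 0 of 10 members and 0.00% of all genes. An unadjusted p under 0.05 was found there for 1 of 10 members, beside 3.74% of all genes (525 of 14042). At P60 edgeR called 0 genes and DESeq2 called 26, none of them a member. The members' share was thus not above that of all genes at P28 by any of the 3 tools, and at P24 it was below that by limma, near it by edgeR and above it by DESeq2. At both ages members rose and members fell.

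**Figure D3:**
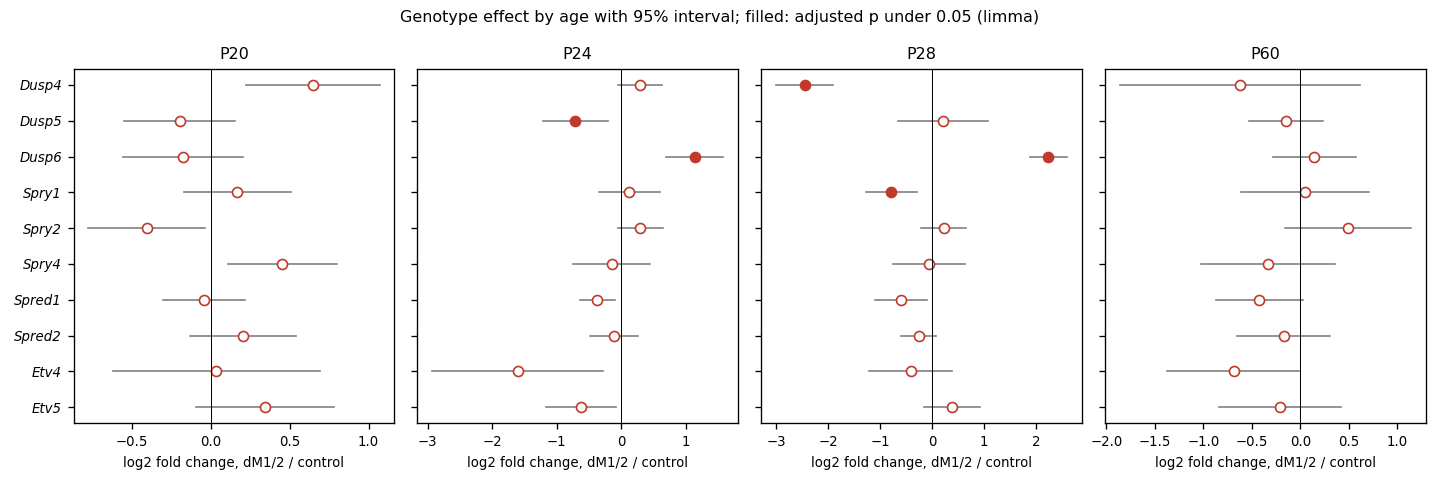
Log2 fold change of dM1/2 over control for each gene at 4 ages, with 95% intervals from limma (filled points, adjusted p under 0.05). Dusp6 lay above 0 and Dusp4 below 0 at P28, while 7 of 10 genes were not called there.

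Levels of different genes were compared per kb of exon. In P28 controls Spry1 stood highest, at 2560.4 ± 683 normalized reads per kb (mean ± SD, n = 3), followed by Dusp4 at 1859.5 ± 615. Their ranges per kb overlapped. Spry2, Spry4 and Spred1 followed at 777 ± 120, 617 ± 259 and 603 ± 169 per kb, with overlapping ranges. Spred2 and Etv5 were at 326 ± 52.8 and 277 ± 81.5 per kb. Dusp6 and Dusp5 were at 149 ± 5.03 and 123 ± 60 per kb, and Etv4 was lowest at 33.5 ± 13.7. In P28 dM1/2 Dusp6 was at 715 ± 137 and Dusp4 at 331 ± 40.2 per kb, so their order was the opposite of that in P28 controls.

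From P24 to P28, early to mid anagen, 2 of 10 members were called in controls, beside 1.46% of all genes, and both rose. Dusp4 rose by 3.71 on the log2 scale (SE 0.23, limma adjusted p = 0.00946), which is 13.1-fold, and Spry1 by 2.47 (SE 0.24, limma adjusted p = 0.0243). Without P24 control 1 neither passed (limma adjusted p = 0.0717 for Dusp4 and 0.107 for Spry1), and the Spry1 call was also lost without P24 control 3 or P28 control 1. Over the 6 left-out libraries the Dusp4 log2 fold change was 3.46 to 3.86 and that of Spry1 2.26 to 2.64. By DESeq2 and in a single fit over 24 libraries, Dusp5 was also called lower at P28 in controls (adjusted p = 0.044 and 0.00325) and Spry4 higher (6.08e-05 and 0.00281). There DESeq2 called 10.7% of all genes and the single fit 1313 genes, against 204 by limma on these groups alone. In dM1/2 6 of 10 members were called, beside 2.67% of all genes, and all 6 rose. They were Dusp4 (0.98), Dusp6 (0.90), Spry1 (1.57), Spry4 (1.61), Etv4 (2.31) and Etv5 (1.59), as log2 fold changes. Their limma adjusted p ranged from 0.00491 for Spry1 to 0.0453 for Dusp6. Etv4 was low in P24 dM1/2, at a mean of 14.2 normalized reads, and its rise was 1.795 to 2.41 over 16 alternatives. Dusp6 was called without P24 dM1/2 2 but lost its call without each of the other 5 libraries, Dusp4 without P28 dM1/2 3, and Spry4 and Etv4 without P28 dM1/2 2, with limma adjusted p up to 0.186. The Dusp6 call was also lost with no filter, TMM scaling and edgeR (adjusted p = 0.0511, 0.0504 and 0.059), and the Dusp4 call in a single fit over 24 libraries (limma adjusted p = 0.35). DESeq2 also called Spred2 (adjusted p = 0.0211), beside 8.03% of all genes. The lists of called members in controls and in dM1/2 differ, which shows no difference by itself. Tested directly, the change from P24 to P28 differed between genotypes for 1 of 10 members, Dusp4, beside 0.707% of all genes. Its change was lower in dM1/2, with a log2 difference of -2.73 (SE 0.28, 95% interval -3.36 to -2.11, limma adjusted p = 0.00919), called under all 22 alternatives. For Dusp6 the difference was 1.11 (SE 0.26, limma adjusted p = 0.0794) and for Etv5 1.01 (limma adjusted p = 0.257). DESeq2 called the difference for Dusp6 (adjusted p = 0.00763), beside 4.21% of all genes.

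**Figure D4:**
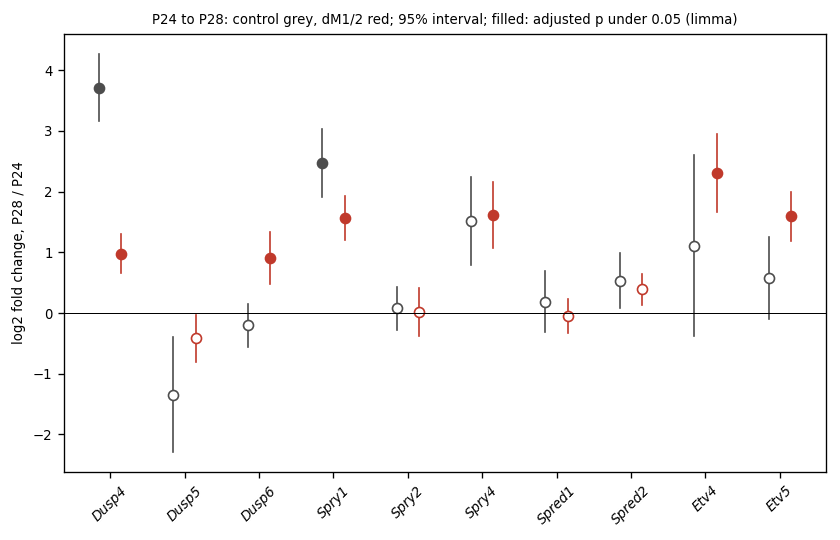
Log2 fold change from P24 to P28 for each gene in controls (grey) and dM1/2 (red), with 95% intervals from limma (filled points, adjusted p under 0.05). Dusp4 rose more in controls than in dM1/2.

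The genotype effect was also compared between stages, as the mean effect at P24 and P28 minus that at P20 and P60. Of 10 members 1 was higher and 1 lower by this test, beside 30.2% of all genes. Dusp6 had a log2 difference of 1.71 (SE 0.19, limma adjusted p = 6.99e-06), called under all 33 alternatives. Dusp4 had one of -1.09 (SE 0.38, limma adjusted p = 0.0342), in which the anagen part is a mean over a P24 value of 0.28, not called, and the P28 value of -2.45. Its call was lost in 11 of 24 fits that left out 1 library. Over all 24 of these fits the difference was -1.43 to -0.88, with limma adjusted p up to 0.065. The 11 libraries were P20 control 2, P20 dM1/2 1, P24 control 2, P24 dM1/2 2 and 3, P28 control 3, P28 dM1/2 2, P60 control 1 and 2, and P60 dM1/2 2 and 3. In controls alone, 2 members were higher in anagen than in telogen and 2 lower, beside 45.6% of all genes. In the same comparison 12 of 13 DP markers were higher and 6 of 7 other fibroblast markers lower, and their part in the change of the members was not tested. Dusp4 (1.63, limma adjusted p = 7.76e-05) and Spry4 (0.66, limma adjusted p = 0.026) were higher in log2 level, and Dusp5 (-1.40, limma adjusted p = 0.000596) and Spred1 (-0.39, limma adjusted p = 0.0253) lower. This mean over 2 ages does not hold for each: mean Dusp4 in controls was 376 at P24 and 5095 at P28, beside 470 at P20 and 430 at P60, and mean Spry4 was 974 and 2932, beside 945 and 1198. The Spry4 call was lost without P20 control 2 or 3, P24 control 2, or P60 control 1 or 2, and the Spred1 call without P20 control 1 or 3, P24 control 1, P28 control 1 or P60 control 2, with limma adjusted p up to 0.062 and 0.0589.

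Among the genes most like Dusp6 over the 8 group means of log2 normalized reads were Eif3m (Pearson r = 0.99), Eno1 (0.986), Rpl13a (0.983) and Phb2 (0.983), of 14243 genes. The 8 means share libraries and depth by stage, and the measure is a description.

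Other genes of the pathway were described from lists, by count and by median log2 fold change, beside 26.6% of all genes called and a median of -0.01 at P24, and 35.5% and 0.00 at P28. Of 12 other feedback regulators tested, 1 rose and 1 fell at P24 (16.7%, median -0.02), and 4 rose and 1 fell at P28 (41.7%, median 0.14). Dusp9, a phosphatase of ERK, was at 6.52, 3.84 and 4.93 in P28 controls and 160.3, 213 and 175 in P28 dM1/2, and rose by 2.95 at P24 and 4.93 at P28 on the log2 scale (limma adjusted p = 0.00139 and 0.000211). All P28 controls were under 10 normalized reads, so Dusp9 passed the filter on the mean there only through dM1/2. With so few reads in controls the size of its rise depends on the value added before the log. With 10 added the rise was 3.67 at P28 (limma adjusted p = 0.000108). Dusp2 and Dusp16 rose at P28 (1.78 and 0.74) and Dusp10, a phosphatase of stress kinases, fell (-1.52). Errfi1, an inhibitor of the EGF receptor, fell at P24 (-0.67).

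Of 26 ERK cascade genes, 5 rose and 3 fell at P24 (30.8%, median 0.05, beside 26.6% of all genes), and 7 rose and 6 fell at P28 (13 of 26, median 0.02, beside 35.5%). Rps6ka1, a kinase that ERK activates, was at 144, 85.2 and 206 in P28 controls and 969, 905 and 912 in P28 dM1/2, and rose by 2.76 (limma adjusted p = 0.00104). Rps6ka2 rose (1.35), while the scaffold Ksr1 (-1.53), the FGF receptor adaptor Frs2 (-0.75) and Rasa2 (-0.71) fell at P28. At P24 Rps6ka1 (1.84), Rps6ka2 (0.61) and Gab1 (0.58) rose, and Ksr1 (-0.92), Rasa2 (-0.65) and Frs2 (-0.43) fell.

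Of 15 receptor tyrosine kinases tested, 3 rose and 2 fell at P24 (33.3%, median -0.08, beside 26.6% of all genes) and 2 rose and 2 fell at P28 (26.7%, median -0.30, beside 35.5%). Fgfr2 (-0.95) and Pdgfrb (-0.69) fell and Fgfr3 (1.21) rose at P24, and Fgfr1 (-0.66) and Pdgfra (-0.97) fell at P28. Flt1 rose at both ages (1.86 and 5.02), as did Erbb3 (1.59 and 2.02). Flt1 was at 77.4, 25.6 and 3.41 in P28 controls, lowest in P28 control 3, and at 677, 647 and 709 in P28 dM1/2. Without P28 control 3 its P28 value was 3.89 (limma adjusted p = 0.000369).

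Receptor ligands had 1 rise and 6 falls among 18 tested at P24, and 3 rises and 6 falls among 19 at P28, which is 38.9% and 47.4% beside 26.6% and 35.5% of all genes, with medians of -0.62 and -0.37 beside -0.01 and 0.00. Fgf7, an FGF made by the DP, was at 12541, 18377 and 10568 in P24 controls and 3795, 4004 and 3645 in P24 dM1/2, and fell at P24 (-1.82) and P28 (-2.18). Hgf (-1.96) and Ereg (-2.23) fell at P28, and Nrg1 (-2.16) and Ereg (-2.53) at P24. Without P28 control 3, Ereg was under the filter on the mean at P28. The size of the P28 fall of Ereg also depended on the value added before the log. With the same larger value added as for Dusp9, it was -1.07 (limma adjusted p = 0.0118). Igf2 rose at P24 (3.21) and P28 (4.55), and Tgfa (1.89) and Hbegf (1.80) rose at P28.

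Of 22 other ERK-induced genes, 3 rose and 2 fell at P24 (22.7%, median -0.25, beside 26.6% of all genes), and 4 rose and 2 fell at P28 (27.3%, median 0.205, beside 35.5%). Without P28 control 3, 4 rose and 7 fell at P28, beside 40.9% of all genes called in that fit. Ccnd1, a cyclin of the G1 phase, was at 374, 644 and 251 in P28 controls and 5732, 5435 and 4479 in P28 dM1/2, and rose by 3.72 (limma adjusted p = 0.000525). Ccnd1 also rose at P24 (3.32), and Klf10 rose at P24 (1.03) and P28 (1.37). Epha2 (2.08) rose at P28 and Ier5 (0.56) at P24. The immediate early genes Egr1 and Fos fell at P24 (-0.94 and -0.92) and P28 (-0.90 and -1.08). For Fos at P28 the limma adjusted p was 0.0498. Dusp6 rose at both ages, at which Egr1 and Fos fell and Ccnd1 and Klf10 rose.

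Of 14 other ETS factors tested, 3 rose and 3 fell at P24 (42.9%, median -0.11, beside 26.6% of all genes), and 1 rose and 4 fell at P28 (35.7%, median -0.15, beside 35.5%). Erf, a repressor that ERK phosphorylates, rose at P24 (0.79) and P28 (1.04), and Elf4 (0.86) and Elf2 (0.55) rose at P24. Ets1 (-1.35) and Gabpa (-0.48) fell at P24, Fli1 (-0.73) and Elf1 (-0.63) at P28, and Elk4, a partner of serum response factor, at both ages (-0.58 and -0.84).

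Without P28 control 3, 40.9% of all genes were called at P28 (35.5% with it), and the counts were 5 higher and 3 lower for other feedback regulators, 4 and 5 for the ERK cascade, 2 and 3 for receptor tyrosine kinases, 3 and 7 for receptor ligands, 4 and 7 for other ERK-induced genes, and 1 and 5 for other ETS factors. Of the genes named above for P28, Fgfr1 was then not called (limma adjusted p = 0.0509) and Ereg was under the filter. Each list thus still held genes that rose and genes that fell.

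**Figure D5:**
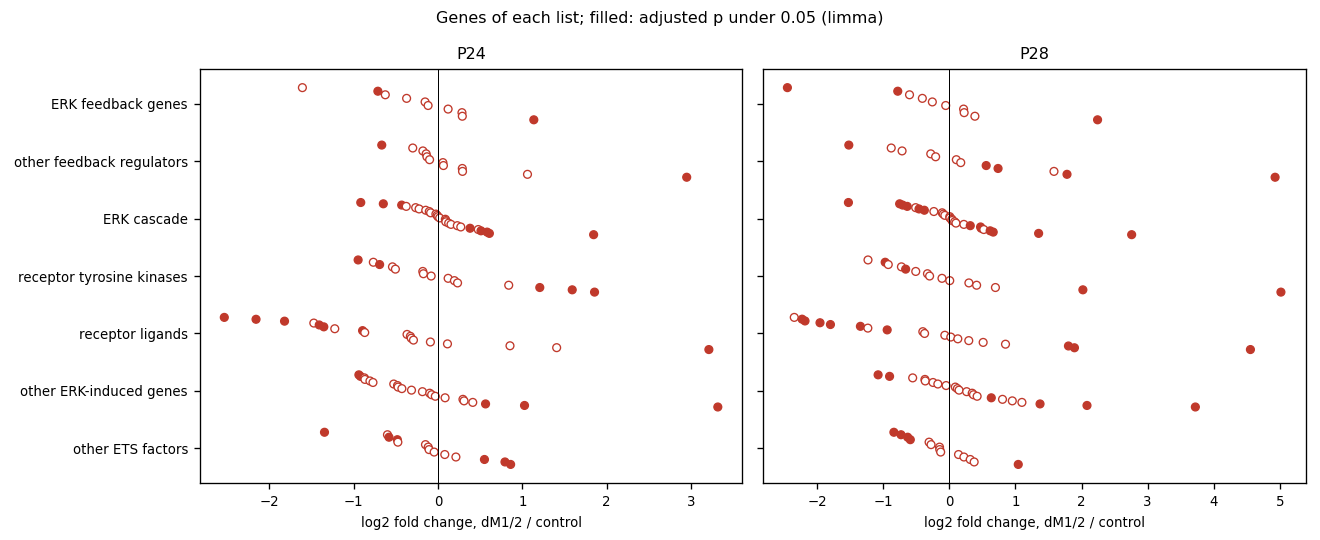
Log2 fold change of dM1/2 over control for the genes of each list at P24 and P28 (filled points, adjusted p under 0.05 by limma). Each list held genes that rose and genes that fell at both ages.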

How the data were processed

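The authors trimmed 50-base single reads with Trimmomatic, mapped them with TopHat2 to mm10, counted them per Ensembl gene (GRCm38.p4) with HTSeq and divided the counts by DESeq2 size factors over the 24 libraries. The deposited values are therefore a signal, normalized reads. Whole reads were recovered for 100% of values, within 0.1 read. The authors' comparison columns hold log2 fold changes, their errors, test statistics and p-values and were not used.

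limma 3.58.1 in R 4.3.3 was fitted with a trend to log2(normalized reads + 1), for genes with a mean of at least 10 over the libraries compared, with Benjamini-Hochberg adjustment over all genes and a threshold of 0.05. Fold changes on this scale understate changes of low genes. On the recovered reads, edgeR 4.0.16 called 3746 genes at P24 and 4918 at P28, and DESeq2 1.42.0 called 4704 and 5827. The scripts were tested on simulated data. Replicates differed beyond sampling noise in all 24 pairs, with a chi-square per degree of freedom of at least 10.4.

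The members and lists were chosen with earlier results of these data known. Named genes were the 10 members, Hdac1 and Hdac2, from each pathway list, at P24 and at P28, as many as 3 called genes with the strongest rise and 3 with the strongest fall whose mutant libraries lay beyond all controls, and the 5 genes most like Dusp6. Of 25755 gene identifiers 25508 matched GENCODE vM21. Promoters are from RefSeq (GRCm38.p6). Alternatives were another pseudocount, other filters and thresholds, TMM scaling, edgeR, DESeq2, 1 fit over 24 libraries, a replicate block and leaving out each library. Some genes that meet the rule for named genes, or stand among those most like Dusp6, are not reported here; counts and medians of lists include all genes tested.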

Additional observations from a re-analysis of the deposited data

Results flagged for a closer look

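The effect of the genotype differed between ages for Dusp4 and Dusp6 by tests of the difference itself. The P24 to P28 change of Dusp4 was lower in dM1/2 than in controls by a log2 difference of -2.73 (limma adjusted p = 0.00919). The anagen minus telogen difference of the genotype effect was 1.71 for Dusp6 (limma adjusted p = 6.99e-06) and -1.09 for Dusp4 (limma adjusted p = 0.0342). For Dusp4 the anagen part is a mean over 0.28 at P24, not called, and -2.45 at P28, and its call was lost in 11 of 24 fits that left out 1 library, the one without P28 control 3 among them (limma adjusted p = 0.0584). In the anagen minus telogen difference, depth and in part sex cannot be told apart from stage. The DP and other fibroblast marker sums also differed between stages and libraries, and their part in these differences was not tested. Groups of 3 libraries are too small for a check for outlying libraries.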

How the results depend on the processing

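Of 20 called results of single members, none changed direction under 384 alternatives. Stricter thresholds, other filters, a single fit over 24 libraries and the replicate block leave the log2 fold change as it was. These alternatives could not change a direction. At P20 DESeq2 called 1 member and leaving out 1 library 0 to 2, against 0. At P24, against 2, 1 was called at an adjusted p under 0.01, 1 with the added condition of a log2 fold change beyond 1 in size, 1 with no filter and 5 by DESeq2, and 1 to 3 without 1 library. From P24 to P28 in controls, against 2, the stricter p called 1, DESeq2 4, a single fit over 24 libraries 4, and leaving out 1 library 0 to 2. In dM1/2, against 6, the stricter p called 3 and leaving out 1 library 3 to 6. For the difference of these changes DESeq2 called 2, against 1. For the anagen and telogen effects the stricter p called 1, against 2, and leaving out 1 library 1 to 3. For anagen against telogen in controls, against 4, the stricter p called 2, the fold threshold 2, and leaving out 1 library 2 to 5. Over all genes at P24 the stricter p called 1565, the fold threshold 1779 and no filter 3521, against 3735. From P24 to P28 the stricter p called 3 genes in controls (against 204) and 67 in dM1/2 (against 375). For the anagen and telogen effects it called 2555 (against 4298). For anagen against telogen in controls it called 3955 and the fold threshold 2607, against 6420. The cause was not tested, except that stricter thresholds give fewer calls by construction. Fewer libraries did not always give fewer calls: over all genes at P20, 1530 were called without P20 control 1, against 60. Over all genes at P20, DESeq2 called 663 against 60 by limma, with 44.6% of calls higher against 81.7%, and from P24 to P28 it called 1494 against 204 in controls and 1127 against 375 in dM1/2; for the difference of these changes it called 595 against 100. A single fit over 24 libraries called 23 genes at P20 (against 60), 19 at P60 (against 0), 1313 from P24 to P28 in controls (against 204) and 78 in dM1/2 (against 375). For the difference of these changes log2(normalized reads + 10) called 151 and at least 10 normalized reads in every library 66, against 100. Leaving out 1 library gave 0 to 1530 genes at P20, 2057 to 4012 at P24, 3043 to 5788 at P28, 0 to 2 at P60, 0 to 67 from P24 to P28 in controls, 57 to 446 in dM1/2, and 8 to 167 for the difference of these changes.

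With the replicate number as a replicate block, 1 member was called at P24 (against 2) and 1 from P24 to P28 in controls (against 2), and no other count of members moved by over 1.5 times. Over all genes the block called 439 at P20 (against 60), 2366 at P24 (against 3735), 6 at P60 (against 0), 27 from P24 to P28 in controls (against 204) and 49 for the difference of the changes (against 100). The calls not made with the block were Dusp5 at P24 (adjusted p = 0.0593) and Spry1 from P24 to P28 in controls (0.0507). The labels give the numbers no meaning beyond naming the mice. The correlations of same-numbered libraries were -0.401 to 0.344 over 6 comparisons of a pair of groups, and in none were all 3 over 0.1. All 3 were positive at P20 (0.231, 0.082 and 0.116) and at P60 (0.344, 0.024 and 0.171), and at P20 every library correlated best with its own number.

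Members that were not called changed sign when 1 library was left out, with lowest and highest log2 values at P20 Spred1 (-0.11 to 0.019), Etv4 (-0.11 to 0.14), and at P24 Spry1 (-0.021 to 0.29), Spry4 (-0.32 to 0.15), and at P28 Dusp5 (-0.18 to 0.57), Spry4 (-0.34 to 0.26), and at P60 Dusp4 (-1.05 to 0.039), Spry1 (-0.24 to 0.23), Etv5 (-0.37 to 0.088), and from P24 to P28 in controls Spry2 (-0.028 to 0.20), Spred1 (-0.028 to 0.36), and from P24 to P28 in dM1/2 Spry2 (-0.11 to 0.15), Spred1 (-0.10 to 0.032), and for the difference of these changes Spry2 (-0.19 to 0.074), Spry4 (-0.21 to 0.41), Spred2 (-0.26 to 0.015), and for the stage difference of the genotype effect Dusp5 (-0.27 to 0.10), and for anagen against telogen in controls Spry2 (-0.14 to 0.0056), Etv4 (-0.28 to 0.30). With edgeR the sign also changed for Spry1 at P60 (-0.002) and for Spry4 in the difference of the P24 to P28 changes (-0.061, and -0.051 with DESeq2). Telogen libraries had fewer reads, which limits what low genes such as Etv4 can show there.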
